A study of Mus musculus with 4 samples.

Results

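Bile formation depends on transporters at both faces of the hepatocyte, and the transcripts of 10 such genes, chosen by symbol from a list of bile acid and biliary lipid transporters, were examined in mouse liver with and without Shp2 in hepatocytes. The canalicular group held Abcb11, Abcb4, Abcc2, Abcg5 and Abcg8, and the basolateral group Slc51a, Slc51b, Slc10a1, Abcc3 and Abcc4. The platform annotation gave a probe for 9 of the 10 genes, with 10 probes in all among 25697. Abcc4, an exporter of bile acids and other organic anions to blood, was matched by no probe and is not analysed here. Slc51a was not above background on any array, so that 8 genes were tested among 9311 rows, all 5 canalicular genes and 3 of the 5 basolateral ones.

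The knockout livers, labelled Shp2hep-/-, came from mice positive for albumin-Cre, a recombinase driven by the albumin promoter that removes floxed sequence of Ptpn11, the gene for the phosphatase Shp2, in hepatocytes. The control livers carried the same floxed alleles, are labelled WT Shp2Floxed/Floxed, and have no Cre named in their labels. All mice were 2 months old and had not been fasted. Each group held 2 samples on a single Illumina BeadChip, with the groups at neighbouring positions, so position and genotype cannot be told apart. Whether each sample was 1 mouse or a pool is not stated, and p-values measure only the spread between these samples.

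As background, bile acids are taken up from portal blood by the sodium-dependent carrier Slc10a1 and pumped into the canaliculus by Abcb11. Abcb4 moves phosphatidylcholine to the outer leaflet of the canalicular membrane, the heterodimer of Abcg5 and Abcg8 secretes cholesterol, and Abcc2 exports bilirubin glucuronides and other conjugates. When bile acids accumulate, Abcc3, Abcc4 and the heterodimer of Slc51a with Slc51b can return them to blood. The bile acid receptor FXR is a known activator of Abcb11 and of both Slc51 genes, the oxysterol receptor LXR of Abcg5 and Abcg8, and the oxidative stress factor NRF2 of several Abcc genes.

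On the scanner scale, the median probe read 242 and 257 intensity units on the knockout arrays, against 251 and 262 on the control arrays, and between 11542 and 12328 probes were above background on an array. Intensities were background-corrected, quantile-normalized and put on a log2 scale, on which the replicates correlated at r = 0.982 within knockout and 0.984 within control across rows. Levels of different probes are not comparable with each other. Ptpn11 read 11.38 and 11.56 in knockout and 12.75 and 12.85 in control on its brightest probe. The difference of −1.33 (SE 0.18, adjusted p = 0.0599) was in the direction that the labels give. Its dimmer probes ILMN_2743723 and ILMN_1245874 differed by −1.26 and −1.13, and ILMN_2681329 was above background on no array. Whether these probes lie within the deleted part is not known. In bulk tissue, fewer cells of a type and less RNA per cell cannot be told apart. Of the hepatocyte markers, 9 were tested with a median difference of −0.01, but the probe of Alb was above background on 3 of the 4 arrays only, with values from 5.58 to 6.05, whereas that of Apoa1 read between 15.69 and 15.85.

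The canalicular genes did not move as 1 group. The bile salt pump and the phospholipid translocase were higher in knockout on both arrays, by 1.96-fold and 1.81-fold. The conjugate exporter and both sterol transporter partners were lower on both arrays, by 1.28-fold to 1.42-fold on the brightest probe of each gene. None of these 5 differences passed an adjusted p of 0.05. Of the basolateral genes, Slc51b passed, while Slc10a1 and Abcc3 overlapped between the groups.

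Abcb11 encodes the bile salt export pump, the main route of bile acids into bile. Its probe ILMN_2758509 read 7169 and 8112 scanner units in the knockout livers, against 4188 and 3683 units in the control livers. After normalization the log2 intensities were 12.75 and 12.96 in knockout and 11.95 and 11.82 in control, with means of 12.86 ± 0.15 and 11.88 ± 0.09 (SD, n = 2 each). Both knockout livers lay above both controls, and the gap of 0.80 between the groups was wider than the spread of 0.21 within knockout or 0.13 within control. The difference of 0.97 (SE 0.19, 95% interval 0.50 to 1.45) had an unadjusted limma p of 0.00297 and an adjusted p of 0.116. A difference of that size or more, in either direction, was seen in 5.5% of all rows tested.

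Abcb4, the phosphatidylcholine translocase whose loss leaves bile acids unbuffered in bile, was measured by ILMN_2648742. It read 23594 and 17306 scanner units in knockout and 10347 and 12351 units in control. The log2 intensities were 14.48 and 14.09 in knockout, against 13.29 and 13.56 in control, again with no overlap. The spread within knockout, 0.39, came closer to the gap of 0.53 between groups than it did for Abcb11. The difference was 0.86 (SE 0.22, 95% interval 0.29 to 1.42, adjusted p = 0.174).

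Abcc2, the canalicular exporter of glucuronide and glutathione conjugates, was the only one of the listed transporters with more than 1 probe. The brighter probe, ILMN_2606719, read 2648 and 2964 scanner units in knockout, against 4016 and 3441 units in control. Its log2 intensities were 11.20 and 11.42 in knockout and 11.90 and 11.71 in control, a difference of −0.49 (SE 0.19, 95% interval −0.98 to −0.01, adjusted p = 0.298). The dimmer probe, ILMN_2655359, gave 7.51 and 7.70 in knockout, against 8.34 and 8.36 in control, a difference of −0.74 (SE 0.19). Both probes thus placed both knockout livers below both controls, and with every probe tested on its own neither passed (adjusted p of 0.336 and 0.193).

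Abcg5 and Abcg8, the sterol exporter's obligate partners, differed in the same direction. Abcg5 read 9294 and 9435 scanner units in knockout, against 11860 and 12618 units in control. Its log2 intensities of 13.15 and 13.19 in knockout and 13.47 and 13.59 in control gave a difference of −0.36 (SE 0.18, 95% interval −0.81 to 0.09, adjusted p = 0.403). Abcg8 read 5366 and 4410 scanner units in knockout, against 6869 and 6482 units in control. On the log2 scale this was 12.32 and 12.02 in knockout and 12.72 and 12.63 in control, a difference of −0.51 (SE 0.20, 95% interval −1.01 to −0.01, adjusted p = 0.297). For each partner the knockout values stayed below the controls, with gaps of 0.27 and 0.32 between the groups. Such sizes were common: differences at least as large in either direction occurred in 35.2% of rows for Abcg5 and 21.5% for Abcg8.

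The 2 sterol transporter genes lie head to head on chromosome 17 (RefSeq, GRCm38.p6), and the stretch between their starts is shown because their transcripts differed the same way. Abcg5 is read leftwards from base 84683011 and the Abcg8 start nearest to it rightwards from 84683121, which leaves 109 bases at chr17:84683012-84683120, plus strand. RefSeq also lists a further Abcg8 start upstream of this one. None of the motifs searched below matched in exact letters between the 2 starts, so that no base is in capitals.
Abcg5 and Abcg8: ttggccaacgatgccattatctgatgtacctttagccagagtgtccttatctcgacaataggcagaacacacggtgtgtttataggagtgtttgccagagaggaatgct

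**Figure D1:**
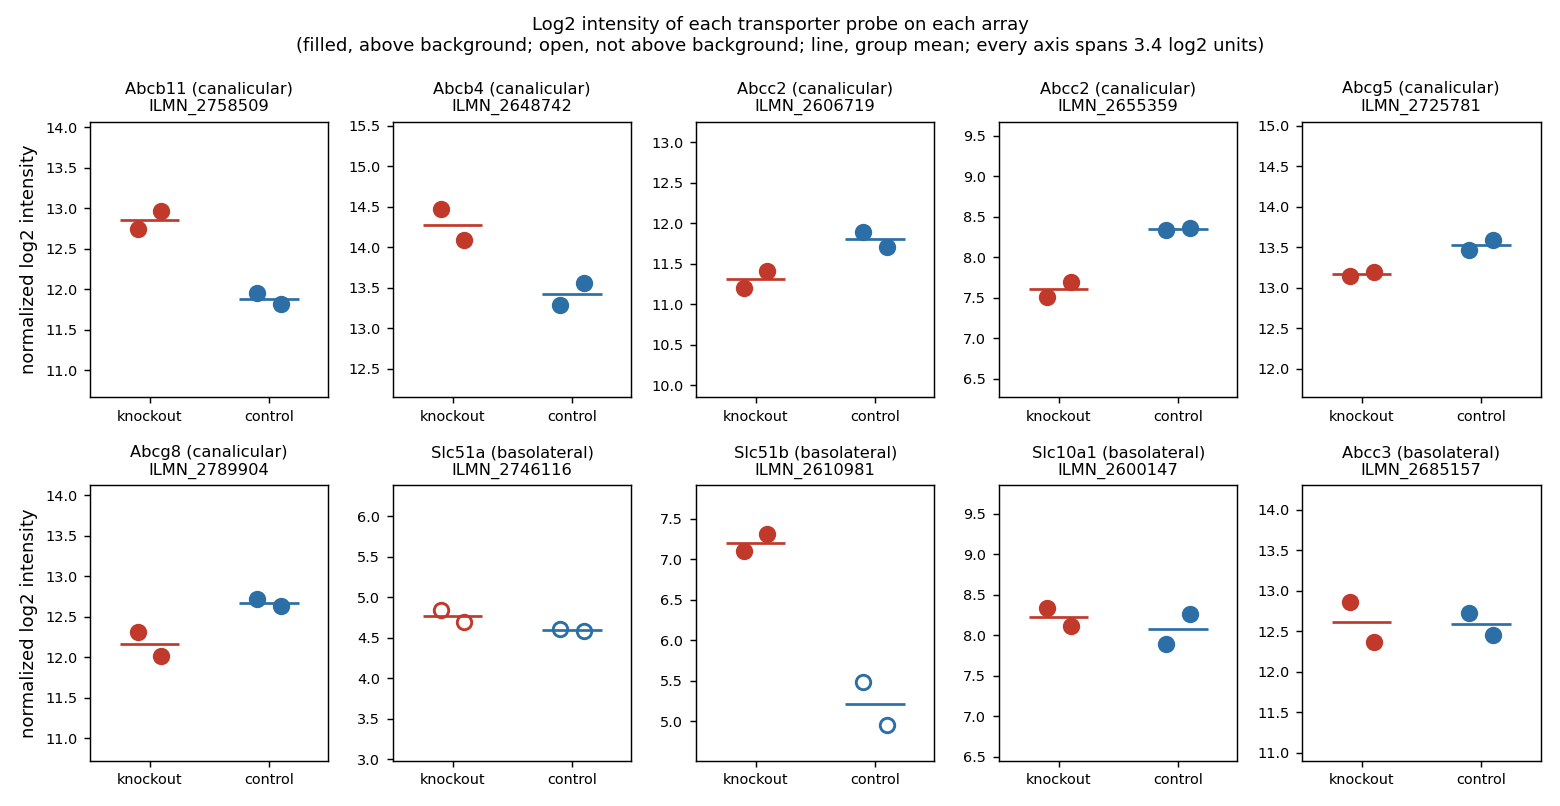
Normalized log2 intensity of each of the 10 probes (vertical axes, each spanning the same number of log2 units) in the knockout and control livers, with 1 point per array and a line at the group mean. Open points were not above background. Abcb11, Abcb4 and Slc51b were higher and Abcc2, Abcg5 and Abcg8 lower on both knockout arrays, while Slc10a1 and Abcc3 overlapped.

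At the basolateral face, Slc51b, the small accessory subunit that the organic solute transporter needs to reach the membrane, rose in knockout liver and was the 1 gene of the 8 with an adjusted p under 0.05. Its probe ILMN_2610981 read 346 and 375 scanner units in the knockout livers, against 243 and 224 units in the control livers. Both knockout arrays were above background, with a detection p of 0, and neither control array was, with detection p of 0.165 and 0.661. The log2 intensities were 7.10 and 7.31 in knockout and 5.48 and 4.95 in control, so the groups were 1.62 apart. The fitted difference of 1.99 (SE 0.25, 95% interval 1.37 to 2.61, adjusted p = 0.0482) rests on control values at background, and only a bound holds. On this background-corrected scale with an offset of 16, Slc51b was at least 2.56-fold higher in knockout, where each control array was set at the dimmest probe above background on it, or at the Slc51b value if brighter. The bound holds for that scale only: the difference was 1.35 with an offset of 50 and 0.63 without background correction, and the ratio of mean scanner units was 1.54. This probe entered the test through its knockout arrays alone, which could only happen with a difference in that direction. The adjusted p lay between 0.0183 and 0.0707 in the 10 alternative treatments of all 4 arrays that included the gene, and passed in 6. It was between 0.0605 and 0.189 when any array was left out.

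Slc51a, the partner of Slc51b in the same heterodimer, was not measurable. Its probe ILMN_2746116 read 195 and 192 scanner units in knockout, against 174 and 183 units in control, below the median probe of every array, and its detection p ran from 0.794 to 0.977. No fold change is given for it. Whether the probe works was not tested.

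Slc10a1, the uptake carrier, read 536 and 499 scanner units in knockout and 440 and 493 units in control through ILMN_2600147. The log2 intensities of 8.33 and 8.12 in knockout, against 7.89 and 8.26 in control, overlapped, and the difference was 0.15 (SE 0.22, 95% interval −0.39 to 0.70, adjusted p = 0.788). Abcc3, an exporter of conjugates and bile acids to blood, read 7767 and 5498 scanner units in knockout and 6878 and 5679 units in control. Its log2 intensities were 12.86 and 12.37 in knockout and 12.72 and 12.45 in control, and both control values fell inside the knockout range. The difference of 0.03 (SE 0.24, 95% interval −0.58 to 0.65, adjusted p = 0.969) leaves changes of up to about the interval's ends undetectable with 2 arrays a group, and leaving out single arrays turned its direction (−0.22 without knockout replicate 1 and −0.10 without control replicate 2). That of Slc10a1 turned to −0.03 without control replicate 1.

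**Figure D2:**
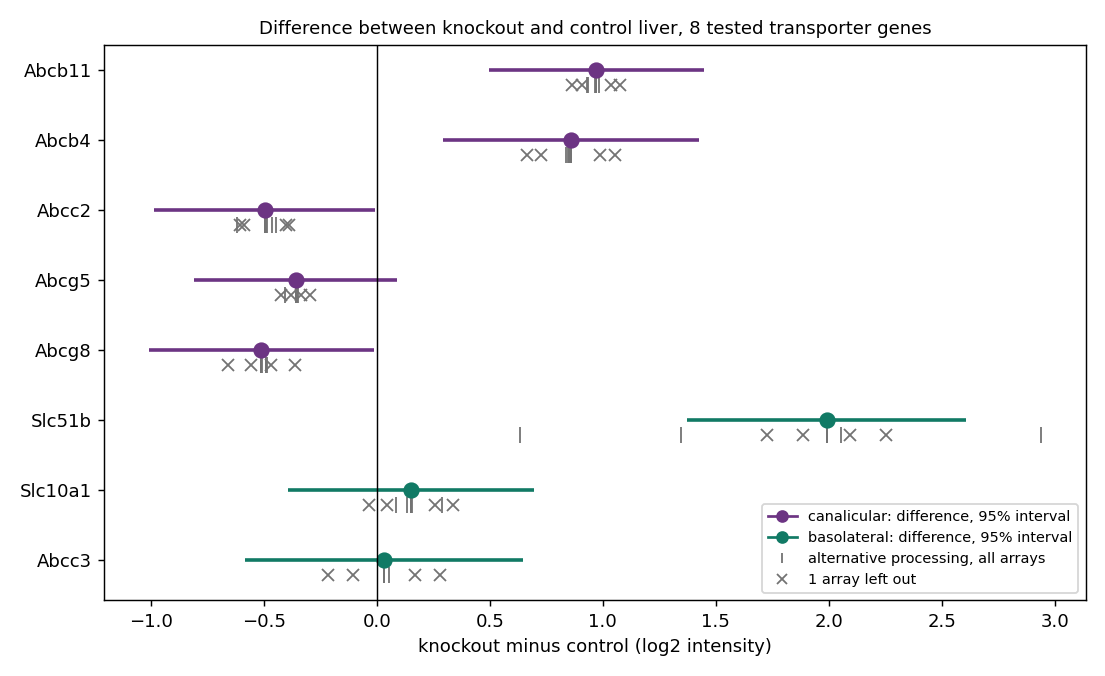
Knockout minus control difference in log2 intensity for the 8 tested genes, with the 95% interval of the limma fit (points and lines), the values under alternative processing (ticks) and with 1 array left out (crosses). At every point, tick and cross, Abcb11, Abcb4 and Slc51b lay above 0 and Abcc2, Abcg5 and Abcg8 below 0. The interval of Abcg5 crossed 0 (−0.81 to 0.09). The size of the Slc51b difference ran from 0.63 to 2.94 with the treatment of background.

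Set against all rows, 1 of the 8 genes passed the adjusted threshold, in the higher direction, where 0.795% of rows passed in either direction and 0.451% were higher. At an unadjusted p under 0.05, 3 of the 8 were higher (Abcb11, Abcb4 and Slc51b) and 2 lower (Abcc2 and Abcg8), beside 9.45% and 7.07% of all rows. Both knockout arrays lay above both controls for 3 genes and below for 3, where 24.8% and 23.8% of all rows did so. The median difference of the 8 was 0.09, beside 0.01 over all rows. Since Slc51b passed the filter only through knockout, these counts describe the genes tested and not all 10.

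The median difference was −0.36 over the 5 canalicular genes and 0.15 over the 3 basolateral genes. Averaged per array, the canalicular log2 mean was 12.78 and 12.74 in knockout and 12.67 and 12.66 in control, and the basolateral mean 9.43 and 9.27 in knockout and 8.70 and 8.55 in control. The mean difference of the canalicular genes less that of the basolateral genes was −0.63, without a test, and it came from Slc51b. With Slc51b at its bound it was −0.42, and over Slc10a1 and Abcc3 alone it was 0.00. The canalicular mean difference of 0.09 combined opposite directions, with Abcb11 and Abcb4 at 0.86 or more and the other 3 at −0.36 or less.

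**Figure D3:**
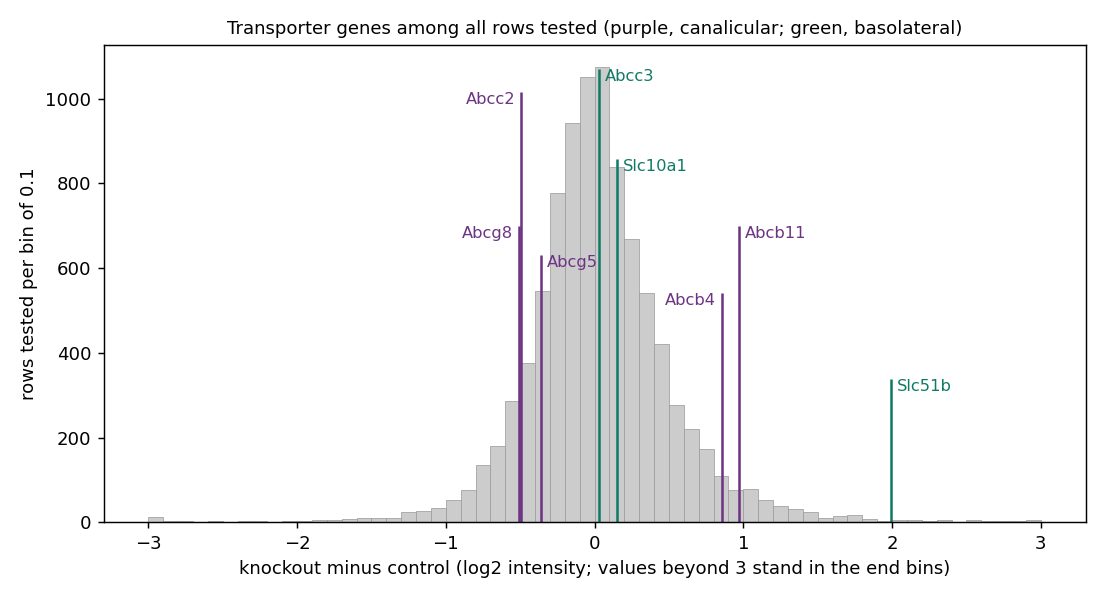
Histogram of the knockout minus control differences of all 9311 rows tested (grey, rows per bin), with the canalicular genes (purple) and basolateral genes (green) marked at their own differences; the height of a mark has no meaning. Slc51b at 1.99 stood in the upper tail, Abcb11 and Abcb4 on the right shoulder, and Abcc3 at 0.03 near the centre.

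Promoter windows in the RefSeq table (GRCm38.p6), from 250 bases before to 50 after a start, were found for 9 of the 10 genes, in 12 windows. They were searched on both strands for AGGTCA, the core element of many nuclear receptors, and for repeats of it. The inverted repeat AGGTCANTGACCT is a type of site bound by FXR, and the direct repeat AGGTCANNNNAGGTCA a type bound by LXR. TGANNNNGC was searched as a loose form of the core bound by NRF2, so a match need not be such a core. Both repeats contain the core element. AGGTCA was present in 5 of the 12 windows, 1 each of Abcb11, Slc51b, Slc10a1, Slc51a and Abcc2, and in 16.3% of all 32851 windows of the same length. Neither repeat matched any of the 12, and they matched 0.00913% and 0.0152% of all windows. Only exact letters were searched, and matches that rare leave a miss uninformative about sites with changed letters. Read in the direction of AGGTCA, the Abcb11 element is followed after 1 base by TGGCCT, where the inverted repeat has TGACCT. Near matches of this kind were not counted in the other windows, so no rate stands beside it. TGANNNNGC occurred in 6 of the 12 windows (Slc10a1, Slc51a, Abcc2, Abcg8 and both of Abcc4) and in 41.3% of all. A match is a description of letters only, and genes on either side of 0 held the core element.

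The upstream stretches of the bile salt pump and of the called basolateral gene are shown in full, since their transcripts had the largest differences, with the core element or its reverse complement in capitals. The Abcb11 stretch is chr2:69342617-69342866 and that of Slc51b chr9:65422774-65423023, both on the minus strand and ending at the base before the start.
Abcb11: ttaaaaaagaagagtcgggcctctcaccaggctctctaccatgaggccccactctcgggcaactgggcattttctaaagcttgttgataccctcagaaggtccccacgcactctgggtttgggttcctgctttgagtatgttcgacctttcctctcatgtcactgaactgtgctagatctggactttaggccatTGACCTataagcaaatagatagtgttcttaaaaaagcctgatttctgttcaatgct
Slc51b: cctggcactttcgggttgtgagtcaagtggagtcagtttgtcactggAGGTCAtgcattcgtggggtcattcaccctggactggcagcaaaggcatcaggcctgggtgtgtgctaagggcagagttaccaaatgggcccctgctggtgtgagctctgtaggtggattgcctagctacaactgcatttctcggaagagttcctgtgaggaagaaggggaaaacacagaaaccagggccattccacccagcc

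The 5 core elements are compared with 10 bases on either side, each turned to read AGGTCA (capitals). They begin 56 (Abcb11), 58 (Slc51a), 49 (Abcc2), 87 (Slc10a1) and 203 (Slc51b) bases before the start of their window's transcript, counted from the end farther from it. They lie at chr2:69342657-69342682 plus, chr16:32487922-32487947 plus, chr19:43782249-43782274 plus, chr12:80968151-80968176 minus and chr9:65422961-65422986 minus.
Abcb11: atttgcttatAGGTCAatggcctaaa
Slc51a: attccctgatAGGTCAagaagagaag
Abcc2: tcaggatgaaAGGTCAggagacttgc
Slc10a1: gcaggcacagAGGTCAgaaaacttaa
Slc51b: ttgtcactggAGGTCAtgcattcgtg

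Lists of genes around these transporters were described by counts, beside which 0.795% of all rows passed. Of 12 genes tested from a list of other hepatocyte transporters and related proteins, 0 passed, with a median of 0.19. Ephx1, an epoxide hydrolase also counted among the NRF2 targets below, differed by 0.78. Tmem30a, the partner subunit of phospholipid flippases, differed by 0.73 and Atp8b1, a canalicular flippase, by 0.49. Among 15 genes of the canalicular scaffold and its trafficking 0 passed (median 0.30), the claudin genes Cldn1 and Cldn2 differing by 1.43 and 0.84 and the scaffold gene Slc9a3r1 by −0.47. The 13 nuclear receptors and factors had a median of −0.37 and 0 passed. Nr1i3, the receptor CAR, differed by −0.80, Foxa1 by −0.71 and Nr1h3, the receptor LXR alpha that drives the sterol transporters, by −0.67. Nr0b2, a target of FXR, was above background on 1 control array and no knockout array and was not tested.

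Targets of the receptors gave the following values for the same livers. Of 8 FXR targets outside the transporters 0 passed (median 0.04), and Osgin1 differed by 1.14, the phospholipid transfer protein gene Pltp by 1.13 (0.40 without control replicate 2 and 1.86 without control replicate 1) and the syndecan gene Sdc1 by 0.30. Of 7 LXR targets 0 passed (median 0.21), with the lipase gene Lpl at 1.75, the lipogenic factor gene Srebf1 at −1.23 and the cholesterol transporter gene Abcg1 at 0.77 (0.37 without knockout replicate 1 and 0.39 without control replicate 2). In control, Abcg1 was above background on 1 array only. Of 10 NRF2 targets 1 passed, the glutathione transferase gene Gsta1 (2.06, SE 0.22, adjusted p = 0.0345). That call was lost from the authors' processed values (adjusted p = 0.080) and with any array left out (adjusted p of 0.0769 to 0.160). All 10 NRF2 targets lay above 0, where 4716 of all 9311 rows did, with Hmox1 at 1.11, Sqstm1 at 1.02 and a median of 0.60. Of 6 CAR and PXR targets 0 passed (median 0.17). Cyp2b9, above background on 1 control array, differed by 2.66 and Cyp2c29 by 0.51 (0.12 without knockout replicate 2). Cyp2a5 differed by 0.26 on its brightest probe and by 0.58 with its probes averaged.

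Because cholangiocytes also express Slc51a, Slc51b and Abcc3, markers of that and other cell types were read beside the transporters. Of 14 cholangiocyte markers 9 had a probe and 5 were tested, with 0 passing, 1 above 0 and a median of −0.11. Their summed linear intensity was 472 to 564 in knockout and 517 to 647 in control, and Krt7, Krt19 and Cftr were not above background on any array. The named markers Cldn7, Sox9 and Muc1 differed by −0.36, −0.11 and −0.10. Sox9 and Muc1 were above background on only 1 array of each group, with log2 values of 5.61 to 6.01. The sums of the groups overlapped.

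Among markers of blood and stromal cells S100a8 alone passed, and the median differences of the lists other than neutrophil ran from −0.08 to 1.29. The neutrophil median of 1.58 was the fitted value of S100a9, for which only a bound holds. Over all 9311 rows, 4716 lay above 0. For macrophages 9 of 10 tested markers lay above 0 (median 0.79, 0 passed), with summed intensity of 12058 to 12946 in knockout and 5097 to 9036 in control, and Lyz2, Timd4 and Cd14 at 1.82, 1.57 and 1.18. All 7 stellate and fibroblast markers lay above 0 (median 0.42, 0 passed; sums 19188 to 19521 in knockout and 11255 to 16461 in control), with Lum at 1.42, Col3a1 at 0.87 and Reln at 0.64. The 3 red cell genes Slc4a1, Hba-a1 and Alas2 differed by 1.32, 1.29 and 0.50, with sums of 30584 to 32327 in knockout and 11829 to 19011 in control. Of the 3 tested neutrophil genes, S100a8 passed and was at least 2.97-fold higher (adjusted p = 0.0227), S100a9 was at least 1.47-fold higher and Elane differed by −0.22 (sums 311 to 337 in knockout and 139 to 149 in control). The B cell gene Cd79b was at least 1.63-fold higher. Like Slc51b, S100a8, S100a9 and Cd79b were above background on no control array. They entered the test through the knockout arrays alone, so that the filter fixed their direction. The neutrophil median and the gap between the neutrophil sums came from S100a8 and S100a9 and carry the same limit. The S100a8 call was lost without knockout replicate 1, knockout replicate 2 or control replicate 2 (adjusted p of 0.137, 0.0987 and 0.0689). In the same list of lymphoid genes Cd3g and Nkg7 differed by −0.10 and −0.04 (median −0.04, sums 214 to 227 in knockout and 165 to 226 in control). The 10 endothelial markers had a median of −0.08, with Lyve1, Cdh5 and Stab2 at −1.24, 0.50 and −0.28 and overlapping sums of 10427 to 12813 in knockout and 8296 to 12968 in control. Among hepatocyte markers Hnf4a, Alb and Apoa1 differed by −0.37, 0.16 and 0.11 (sums 315666 to 342520 in knockout and 317353 to 345517 in control). In control, Col3a1, Slc4a1, Cdh5 and Cd3g were above background on 1 array only. Lyve1 was above background on 1 knockout array, and Nkg7 on 1 array of each group. The part of other cell types in the transporter differences was not tested.

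Control replicate 2 read lower than control replicate 1 for macrophage, red cell, endothelial and stellate genes, with medians of −0.94, −1.04, −0.71 and −0.54 as replicate 2 less replicate 1, so the transporter differences were also taken without it. Without control replicate 2 Abcb11 differed by 0.91, Abcb4 by 0.99, Slc51b by 1.73, Abcc2 by −0.59, Abcg5 by −0.29 and Abcg8 by −0.55, none with an adjusted p under 0.05. The list medians were then 0.44 for macrophage, 0.71 for red cell, −0.37 for endothelial and 0.27 for stellate genes. Without control replicate 1 they were 1.26, 1.81, 0.36 and 0.70. The size of these marker differences, and the direction of the endothelial one, thus depended on which control was used. The LXR target median was 0.08 without control replicate 2 and 0.35 without control replicate 1. In the same order, the CAR and PXR target median was 0.05 and 0.47, and the NRF2 target median 0.72 and 0.62.

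**Figure D4:**
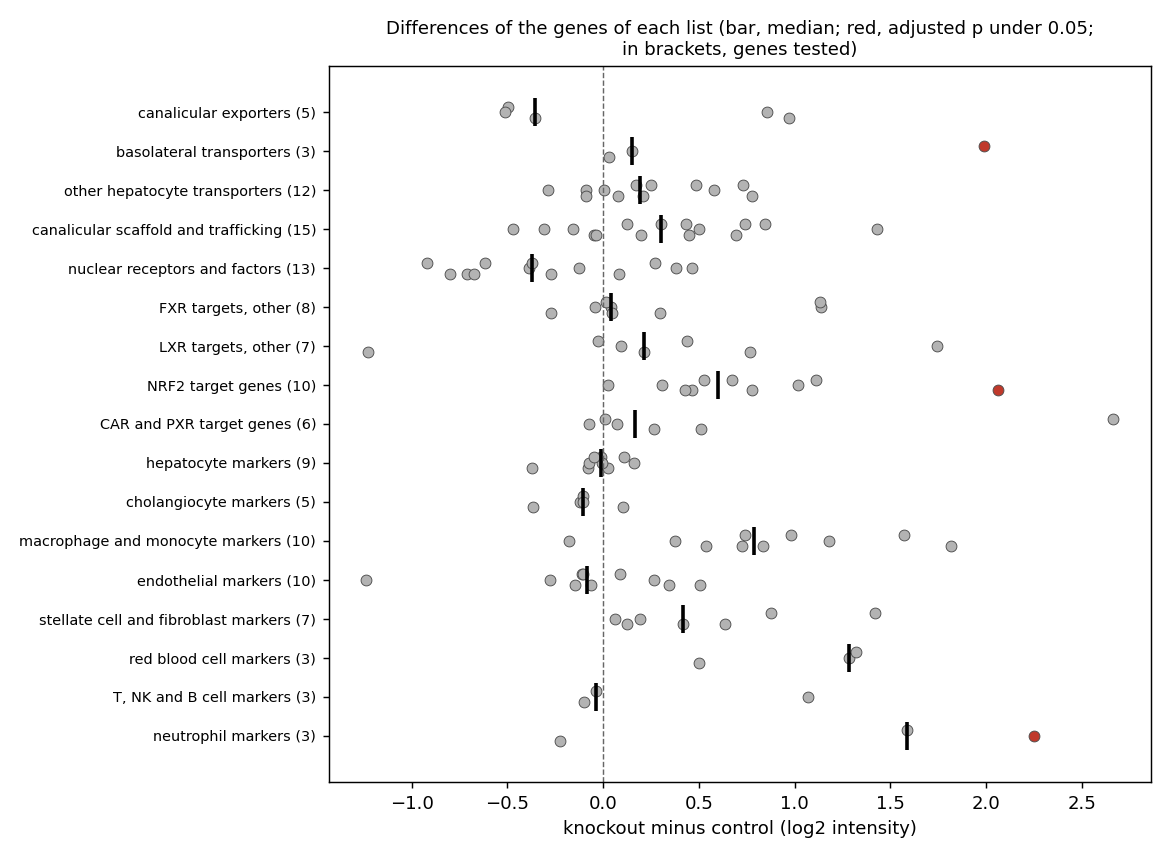
Knockout minus control difference in log2 intensity (horizontal axis) of each tested gene of the transporter groups, related gene lists and cell type markers (rows), with a bar at the median of the list and red points where the adjusted p was under 0.05. The red points are Gsta1, measured in both groups, and Slc51b and S100a8, which were above background in knockout only and so could enter the test in 1 direction only; the canalicular genes split to both sides of 0, and the NRF2 targets lay above it.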

How the data were processed

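The authors deposited linear scanner intensity with detection p-values for each probe, in which, from the values, every array had a mean of 1187, and processed linear intensity, made in a way that the labels do not state, which served as an alternative. In the scanner values 4 rows without a probe identifier were left out. Intensities were processed with neqc of limma 3.58.1 (R 4.3.3; offset 16). Probes with detection p under 0.05 on at least 2 arrays entered, 12197 in number, and each gene was its brightest passing probe. Of the probes, 23978 had 1 symbol, 0 several and 1719 none. Groups were compared with lmFit and eBayes, two-sided, with Benjamini-Hochberg adjustment over all 9311 rows, after a test on simulated data.

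The members and lists were chosen with earlier results of these data known. Named genes were every member, the called genes and 3 of smallest p in each list, Ptpn11, and the 3 nearest patterns to Abcb11, Abcb4 and Slc51b (those of Slc51b were dropped, its controls being at background). The 15 alternatives concern background, scaling, filter, probe choice, moderation and single arrays left out.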

Additional observations from a re-analysis of the deposited data

How the results depend on the processing

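Abcb11, Abcb4, Abcc2, Abcg5, Abcg8 and Slc51b kept their direction under every alternative that tested them. Reversals among the transporters were those of Slc10a1 (−0.033 without control replicate 1, in a range of −0.033 to 0.34) and Abcc3 (−0.22 and −0.10 when single arrays were left out, in a range of −0.22 to 0.28). The count over all rows was 74, against 160 with an offset of 50, 321 without background correction, 15 from the authors' processed values, 46 with every probe on its own and 340 with a variance trend, and with an array left out 0 to 27, namely 0 without either knockout array (1179 and 1511 rows at an unadjusted limma p under 0.05) and 27 without either control array. From the processed values 40% of calls were higher, against 56.8%. The 1 transporter called became 3 without background correction and with a variance trend, where Abcb11 (0.93, adjusted p = 0.0121; 0.97, adjusted p = 0.00829) and Abcb4 (0.85, adjusted p = 0.0420; 0.86, adjusted p = 0.0257) passed. It became 0 from the processed values (Slc51b 2.94, adjusted p = 0.0707), with no filter (1.99, 0.0525), with every probe on its own (1.99, 0.0633) and with robust moderation (1.99, 0.0528), and with any array left out (0 called, Slc51b 1.73 to 2.25), where a group holds 1 sample. It was also 0 with detection required on all 4 arrays, which removes Slc51b. The canalicular less basolateral mean was −0.63, and −0.41 with an offset of 50, −0.16 without background correction, −0.95 from the processed values, 0.0014 with detection on all arrays and −0.49 with no filter. The causes were not tested, except that Slc51b lies near background in control. Among the 54 other genes that the naming rule covers, 22 of 791 values lost a call, 47 gained one and 12 reversed, namely Muc1 with its probes averaged (0.058), Nkg7 with median scaling (0.0175) and from the processed values (0.14), Cd3g from the processed values (0.26), and, with arrays left out, Sox9 (−0.25 to 0.040), Muc1 (−0.30 to 0.095), Cdh5 (−0.11 to 1.12), Cd3g (−1.03 to 0.83) and Nkg7 (−0.53 to 0.46). With an array left out, the difference of 17 of these 54 moved by over 1.5 times, among them Hba-a1 (0.76 to 1.81), Slc4a1 (0.71 to 1.93), Lyve1 (−2.12 to −0.36) and Cyp2b9 (1.72 to 3.60). No paired analysis was made because the labels state no pairing. The control labels carry no replicate number, and the controls are numbered here in the order of their arrays.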

Other observations

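Patterns over the 4 arrays were compared by the root mean square distance between log2 values less their mean, as a description with no test. Outside the transporters, Arsa, the lysosomal arylsulfatase gene, lay nearest to Abcb11 (0.011), followed by the autophagy receptor gene Sqstm1 (0.026) and Mrvi1 (0.043). The closeness of Mrvi1 depended on the treatment of background. Its knockout minus control difference was 0.89 in the main fit but 0.28 without background correction, where that of Abcb11 was 0.93. Nearest to Abcb4 were the adhesion molecule gene Icam1 (0.020), Helz2 (0.022) and the necroptosis effector gene Mlkl (0.043). No nearest genes are given for Slc51b, whose control values were not above background. Among the transporters measured in both groups the closest pair was Abcc2 with Abcg5 (0.144), then Abcg5 with Abcg8 (0.163). All of these distances rest on the same 4 arrays.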
